A study of Danio rerio with 15 samples.

Results

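Gene expression at the amputation plane of the zebrafish fin was compared between 21 and 0 days post amputation (dpa), to describe what still differed 3 weeks into regrowth. The comparison used 6 of the 15 libraries of the series, 3 at 21 dpa and 3 at 0 dpa, and 10234 of the 14836 genes of the deposited table. These genes had a TPM (a length-normalized share of all transcripts) of at least 1 in at least 3 of the 15 libraries. The 21 dpa libraries came from WT fins 21 days after amputation, and the 0 dpa libraries from WT fins sampled on the day of amputation. Both groups shared genotype, tissue and pooling: each library held fin tissue from 10 animals, cut to reach 1 bone segment to each side of the plane. The other 9 libraries, at 4, 7 and 14 dpa, entered the same fit and place the 21 dpa values in time. The time called 4 dpa in the sample labels is given as 3.5 dpa in the series' design text, and no value here depends on which is right.

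A zebrafish fin regrows after amputation from a blastema, a mass of dividing cells derived largely from fibroblasts and osteoblasts under a wound epidermis. Bony rays are rebuilt by osteoblasts and the fin tip is first supported by actinotrichia, rods of collagen-like fibrils. As the blastema moves outward with the growing tip, tissue at the original plane is left behind to mature. The series title concerns Erk, a kinase that Fgf receptors activate and whose activity raises feedback genes such as those of the Dusp and Spry families, and memory of skeletal size.

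Values below are scaled TPM, that is, deposited TPM after one rRNA gene was dropped and the libraries were brought to a common level by median-of-ratios size factors. Changes are 21 minus 0 dpa on the log2(scaled TPM + 1) scale, on which the change of a gene with a low level is understated. A gene is said to have risen, fallen or been called where the limma adjusted p was under 0.05. Each value of p measures the spread between pools of 10 animals, not between single fish.

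The 6 libraries differed in depth and rRNA content. The rRNA gene took 26.1, 67.0 and 31.0% of TPM in the 21 dpa libraries, against 2.26, 22.1 and 36.06% in the 0 dpa libraries. Relative depth outside that gene, read from the steps of low TPM values, was 0.186 to 0.630 at 21 dpa and 0.670 to 2.46 at 0 dpa, so the groups did not overlap in depth. The same steps placed the libraries in 2 sets, within which the steps of a gene keep 1 ratio between libraries more sharply than between sets. The 21 dpa libraries lay in one set and the 0 dpa libraries in the other, so the set and the time cannot be told apart within these 6 libraries. Only 7 dpa ties the sets together, with replicate 2 in the set of 21 dpa and replicates 1 and 3 in the set of 0 dpa. That replicate 2 had 61.1% rRNA and a relative depth of 0.226 outside it. Values given below with library set as a covariate depend on this library for the effect of the set. One library stood apart: the summed scaled TPM of 80 ribosomal protein genes was 751885 in 0 dpa replicate 1, and from 277095 to 403756 in the other 5 libraries.

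Of the genes tested, 1392 (13.6%) differed between 21 and 0 dpa, few of them by an estimated 4-fold or more. Of the 10234 genes, 642 (6.27%) were higher and 750 (7.33%) were lower at 21 dpa by limma. Counts of the gene and marker lists below are to be set beside these shares. The 95% interval of the change lay inside 2-fold either way for 6654 genes (65%), and 200 of these were still called. Genes at a low level fall inside more easily on the log2(scaled TPM + 1) scale. With a pseudocount of 0.1 in place of 1 the number inside was 4358. For 2388 genes (23.3%) the data showed neither a difference nor a return within 2-fold. Only 38 genes (0.371%) differed by more than 2-fold beyond their error (limma's treat test), 11 higher and 27 lower. Among the called genes the median change was 0.85 for those that rose and -0.95 for those that fell, against a median of -0.04 over all tested genes. Estimated changes of at least 2-fold were found for 222 genes that rose and 343 that fell, and of at least 4-fold for 23 and 60. The 3 libraries of one group lay wholly above the 3 of the other for 3063 genes (29.9%), and 1379 of the 1392 called genes were among them. The largest named changes were also picked from such genes. Where groups are said below not to overlap, this describes the values and adds no separate support to a call. In such bulk tissue fewer cells of a type and less RNA per cell cannot be told apart. Keratin and bone genes that mark fin tissue, such as krt5 and bglap described below, were detected in all 6 libraries.

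**Figure D1:**
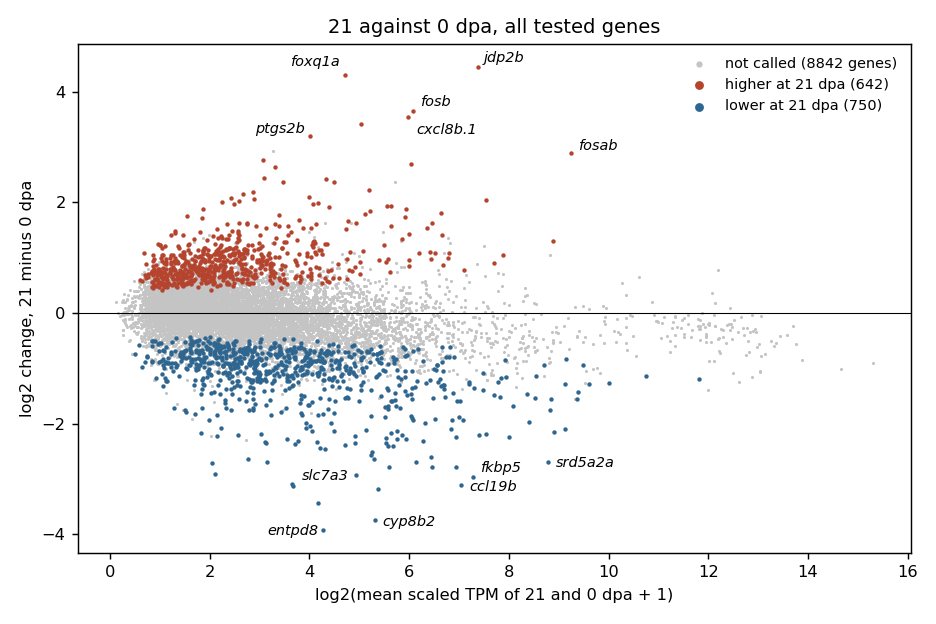
Each point is 1 of the 10234 tested genes, with the log2 of its mean scaled TPM over the 21 and 0 dpa libraries (plus 1) on the x axis and its log2 change, 21 minus 0 dpa, on the y axis. The 642 genes called higher and 750 called lower at 21 dpa are coloured, and jdp2b and entpd8 lie at the upper and lower ends.

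These counts rest on the scaling and on single libraries. In the deposited TPM without scaling 198 genes were called, 75 higher and 123 lower, and 4585 had an interval inside 2-fold. With the rRNA gene dropped and TPM rescaled to its usual total, with no median-of-ratios step, 499 genes were called, 351 higher and 148 lower, against a median gene shifted by 0.30, and 3709 lay inside 2-fold. Without 21 dpa replicate 2, the library with the most rRNA, 884 genes were called, and without 0 dpa replicate 1 the number was 926. With library set as a covariate 2741 genes lay inside 2-fold and 31 were called, 26 of them also called with the same sign without it, and the median SE was 0.404 with the covariate and 0.223 without it.

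Immediate early genes, which cells transcribe within minutes of a stimulus and which include the Fos and Jun subunits of the AP-1 factor, gave several of the largest rises at 21 dpa. Of 38 tested genes of this list 15 (39.5%) rose and 3 fell, against 6.27% of all tested genes that rose, and the median change was 0.93. The AP-1 family gene jdp2b, whose mammalian counterpart is a repressor that pairs with Jun, was at 179, 252 and 529 scaled TPM at 21 dpa, against 19.3, 11.5 and 8.14 scaled TPM at 0 dpa. Every 21 dpa library was above every 0 dpa library, by a difference of 4.45 in log2 (SE 0.59; limma adjusted p = 0.000268). For fosab, which encodes a Fos subunit, the libraries were at 582, 1292 and 1351 scaled TPM at 21 dpa, against 144, 148 and 112 scaled TPM at 0 dpa (log2 change 2.90, SE 0.56, limma adjusted p = 0.00401). Replicate 1 was the lowest of the 21 dpa libraries and still stood above the highest 0 dpa library. Its relative fosb was at 38.9, 174 and 161 scaled TPM at 21 dpa, against 5.84, 11.0 and 5.92 scaled TPM at 0 dpa (log2 change 3.65, SE 0.60, limma adjusted p = 0.00134), again with replicate 1 the lowest at 21 dpa.

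The orphan nuclear receptor gene nr4a1 was at 10.7, 20.4 and 17.7 scaled TPM at 21 dpa, against 1.48, 1.92 and 1.66 scaled TPM at 0 dpa (log2 change 2.64, SE 0.27, limma adjusted p = 3.35e-05). The groups were far apart, while levels within 0 dpa were nearly even. The Kruppel-like factor gene klf11a and the stress-response gene gadd45bb rose, by 1.55 and 1.99 (limma adjusted p = 5.68e-05 and 0.000285). In klf11a the libraries were at 21.4, 21.2 and 19.7 scaled TPM at 21 dpa, against 6.51, 6.65 and 6.20 scaled TPM at 0 dpa. The members that fell were klf9, maff and jun. The Jun subunit gene jun averaged 50.6 ± 8.70 scaled TPM at 21 dpa and 82.7 ± 16.6 scaled TPM at 0 dpa (SD, n = 3 each) and fell, by a log2 value of 0.69 (SE 0.20, limma adjusted p = 0.0347). The early genes atf3 and klf6a gave changes of -0.07 (95% interval -0.49 to 0.36) and 0.01 (95% interval -0.39 to 0.41), both within 2-fold. Without 0 dpa replicate 1 and 21 dpa replicate 2 together, 11 members were called higher.

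Several Erk feedback and Fgf target genes were also higher. Of 32 tested, 8 (25%) rose, against 6.27% of all tested genes, and none fell by limma, adjusted or not. The median change was 0.41. Without the 2 libraries just named 3 members were called higher, and without either alone 5 were. Of the 8 that rose, egr2a and egr3 are also in the immediate early list. The list shares egr1, egr2b, fosl1a, fosl2, ier2a and ier2b with it as well, none of them called. Among the others that rose, dusp1 is also in the glucocorticoid list and dusp2 in the lymphocyte marker list given below. The rest were etv5b and the receptor genes fgfr3, fgfr4 and fgfrl1a. Of the 15 fits that left out 1 library, fgfr4 was called in 15, etv5b in 10, fgfrl1a in 3 and fgfr3 in 2. The zinc finger gene egr3, induced through Erk in many cells, was at 1.85, 3.56 and 3.02 scaled TPM at 21 dpa, against 0.689, 1.07 and 0.658 scaled TPM at 0 dpa (log2 change 1.06, SE 0.17, limma adjusted p = 0.00119). All 3 libraries at 21 dpa were above 0 dpa, at a low level. The phosphatase gene dusp1, which acts on Map kinases, was at 104, 133 and 207 scaled TPM at 21 dpa, against 58.9, 51.3 and 48.6 scaled TPM at 0 dpa (log2 change 1.41, SE 0.34, limma adjusted p = 0.0135), with replicate 3 the highest at 21 dpa. A related phosphatase gene, dusp2, averaged 6.27 ± 0.440 scaled TPM at 21 dpa and 2.26 ± 0.670 scaled TPM at 0 dpa (SD, n = 3 each), with a difference of 1.17 in log2 (SE 0.28; limma adjusted p = 0.0124). The receptor gene fgfr4 averaged 11.09 ± 0.750 scaled TPM at 21 dpa and 6.25 ± 1.48 scaled TPM at 0 dpa (SD, n = 3 each), with a difference of 0.76 in log2 (SE 0.16; limma adjusted p = 0.00687). Other feedback genes did not pass: spry4 gave 0.69 (adjusted p = 0.0545 by limma), etv4 0.41 (adjusted p = 0.232 by limma) and dusp5 -0.27 (adjusted p = 0.679 by limma). Levels of dusp5 overlapped between the groups, at 13.2, 24.3 and 48.1 scaled TPM at 21 dpa, against 40.7, 27.8 and 24.7 scaled TPM at 0 dpa.

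Further large rises lay in transcription factors, a chemokine and enzymes of lipid signals. The forkhead factor gene foxq1a was at 44.4, 56.5 and 45.1 scaled TPM at 21 dpa, against 1.99, 1.66 and 0.935 scaled TPM at 0 dpa (log2 change 4.31, SE 0.22, limma adjusted p = 7.05e-08). Its paralog foxq1b was at 60.6, 56.5 and 58.8 scaled TPM at 21 dpa, against 4.72, 4.68 and 4.29 scaled TPM at 0 dpa (log2 change 3.42, SE 0.19, limma adjusted p = 1.3e-07). Both pairs of groups were separated by more than 10-fold in every library. Reads that the paralogs share could have been split between them in a way the files do not show. The gene cxcl8b.1, a neutrophil-attracting chemokine, was at 128, 99.6 and 119 scaled TPM at 21 dpa, against 11.5, 6.80 and 9.12 scaled TPM at 0 dpa (log2 change 3.54, SE 0.31, limma adjusted p = 1.12e-05). The gene ptgs2b, a cyclooxygenase that makes the precursor of prostaglandins, was at 20.2, 32.7 and 31.0 scaled TPM at 21 dpa, against 1.69, 2.50 and 2.11 scaled TPM at 0 dpa (log2 change 3.2, SE 0.21, limma adjusted p = 8.68e-07). In both the replicates of each group were close and the groups did not overlap. The gene ch25h, which makes 25-hydroxycholesterol, averaged 13.6 ± 5.92 scaled TPM at 21 dpa and 1.06 ± 0.544 scaled TPM at 0 dpa (SD, n = 3 each), with a difference of 2.77 in log2 (SE 0.28; limma adjusted p = 3.35e-05). The SoxB1 factor gene sox19a averaged 33.6 ± 18.7 scaled TPM at 21 dpa and 4.95 ± 1.33 scaled TPM at 0 dpa (SD, n = 3 each), with a difference of 2.43 in log2 (SE 0.34; limma adjusted p = 0.000423). Rounding out the largest named rises, aste1a changed by 2.37 and tcima by 2.23 (limma adjusted p = 0.00162 and 0.000397).

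**Figure D2:**
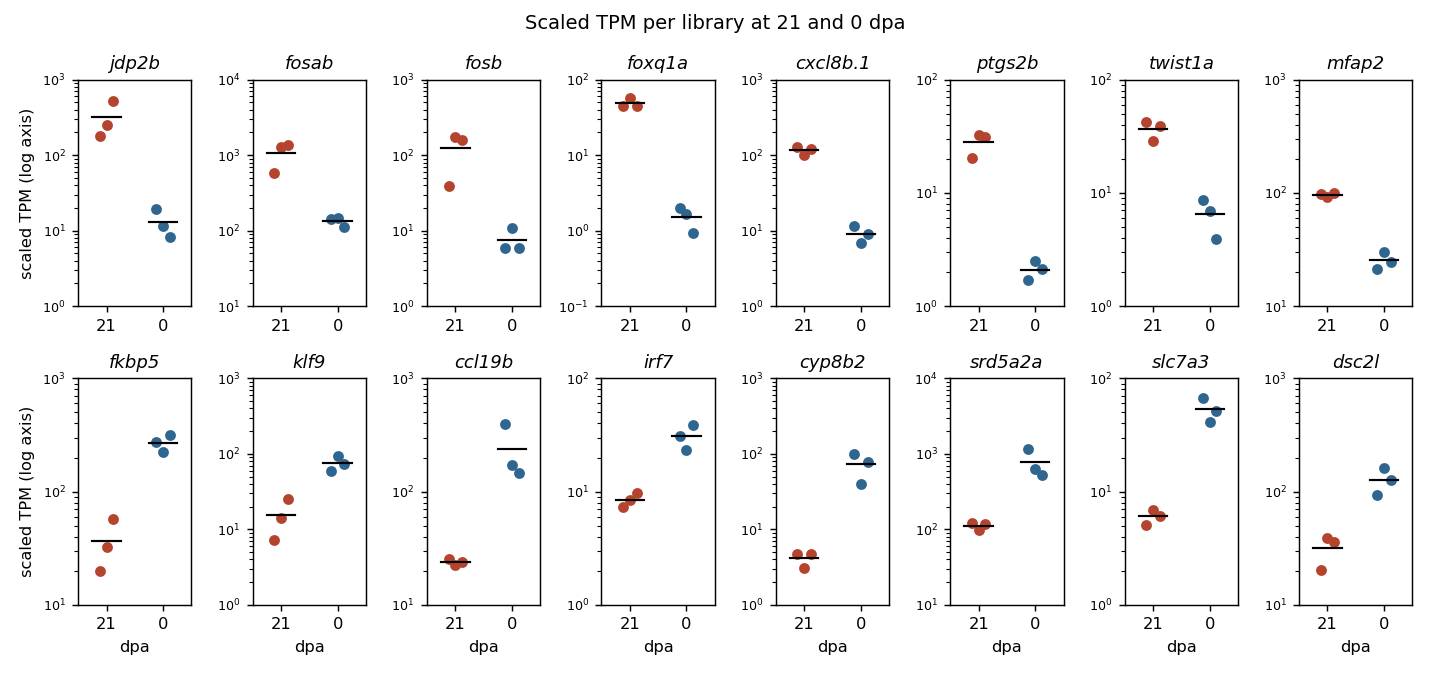
Scaled TPM on a log axis for 16 genes, with the 3 libraries at 21 dpa on the left of each panel and the 3 at 0 dpa on the right. Bars mark the group means, and in each panel the 2 groups do not overlap.

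Part of the skeletal and connective tissue genes were higher at 21 dpa. Of 29 tested osteoblast and bone matrix genes 11 (37.9%) rose, against 6.27% of all tested genes. None fell by limma (1 at an unadjusted p under 0.05), and the median change was 0.70. Without 0 dpa replicate 1 the number that rose was 4, and without 21 dpa replicate 2 it was 3. The homeobox genes msx1b and msx2b, active in the blastema and in osteoblast precursors, were higher by 1.25 and 1.01 (limma adjusted p = 0.00647 and 0.00497). In msx1b the libraries were at 28.4, 24.1 and 28.3 scaled TPM at 21 dpa, against 12.7, 12.5 and 7.71 scaled TPM at 0 dpa, with no overlap. The osteoblast factor gene sp7 stood at 0.820, 1.28 and 0.919 scaled TPM at 21 dpa, against 0.190, 0.382 and 0.158 scaled TPM at 0 dpa (log2 change 0.69, SE 0.17, limma adjusted p = 0.0132), close to the floor in both groups. A bone collagen gene, col1a2, was at 264, 311 and 232 scaled TPM at 21 dpa, against 121, 162 and 148 scaled TPM at 0 dpa (log2 change 0.90, SE 0.23, limma adjusted p = 0.0166), and 0 dpa was lower in each library. The osteocalcin gene bglap did not pass: it was at 7069.6, 3933 and 5545 scaled TPM at 21 dpa, against 7330.1, 2106 and 2000.4 scaled TPM at 0 dpa, and the groups overlapped (95% interval -0.35 to 1.90). Replicate 1 of 0 dpa was the highest library of all for bglap.

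Among blastema and actinotrichia genes 13 of 31 (41.9%) rose, against 6.27% of all tested genes. None fell by limma (1 at an unadjusted p under 0.05), and the median change was 0.66. Without 0 dpa replicate 1 and 21 dpa replicate 2, 6 were called higher. Of the 13, msx1b and msx2b are also in the osteoblast list, junba and junbb in the immediate early list, hoxa13a in the Hox list and aldh1a2 in the pathway list given below. The microfibril gene mfap2 was at 96.9, 91.6 and 99.1 scaled TPM at 21 dpa, against 21.5, 30.0 and 24.8 scaled TPM at 0 dpa (log2 change 1.89, SE 0.24, limma adjusted p = 0.000181). Its groups were tight and well apart. The mesenchymal factor gene twist1a was at 42.1, 28.9 and 39.0 scaled TPM at 21 dpa, against 8.6, 6.88 and 3.94 scaled TPM at 0 dpa (log2 change 2.37, SE 0.36, limma adjusted p = 0.000666). For prrx1b, a homeobox gene of fin mesenchyme, the means were 3.14 ± 0.582 scaled TPM at 21 dpa and 0.950 ± 0.126 scaled TPM at 0 dpa (SD, n = 3 each), with a difference of 1.08 in log2 (SE 0.18; limma adjusted p = 0.0013). Actinotrichia genes, by contrast, did not pass. The gene and1 averaged 9.62 at 21 dpa and 4.65 at 0 dpa (95% interval 0.04 to 1.79, adjusted p = 0.16 by limma), against 338 at 4 dpa. Likewise and2 averaged 0.453 at 21 dpa and 0.256 at 0 dpa (95% interval -0.56 to 0.98).

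Of 36 tested collagen, proteoglycan and matrix genes 13 rose and 1 fell (median change 0.55). Of all tested genes 6.27% rose and 7.33% fell. The number of the list called higher by limma was 0 in deposited TPM and 6 with the rRNA gene dropped and TPM rescaled. It was 14 after quantile normalization and 0 with library set as a covariate. Without 0 dpa replicate 1 and 21 dpa replicate 2 together, 4 were called higher. This list shares col1a1a and col1a2 with the osteoblast list. The fibrillar collagen gene col11a2 was at 6.71, 9.18 and 7.62 scaled TPM at 21 dpa, against 2.49, 3.46 and 3.07 scaled TPM at 0 dpa (log2 change 1.14, SE 0.16, limma adjusted p = 0.000483). The small proteoglycan genes aspn and bgnb were higher by 1.34 and 0.86 (limma adjusted p = 0.00518 and 0.00423). The member that fell was prg4b, a proteoglycan known in mammals as lubricin, which averaged 0.0549 at 21 dpa and 1.08 at 0 dpa (limma adjusted p = 0.00107). Of 14 matrix protease and inhibitor genes 3 (21.4%) rose, namely mmp2, htra1a and mmp14a, with changes of 0.84, 0.98 and 0.81 (limma adjusted p = 0.00929, 0.0106 and 0.0154). The 10 tested osteoclast genes gave no call by limma, 2 at an unadjusted p under 0.05, and a median change of 0.12. The bone-resorption genes ctsk and acp5a averaged 134 and 3.96 at 21 dpa, against 167 and 4.16 at 0 dpa, with 95% interval -1.38 to 0.77 for ctsk and 95% interval -1.49 to 1.34 for acp5a.

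Genes of position along the fin included many that were higher at 21 dpa. Of 27 tested Hox and positional genes 12 (44.4%) rose, against 6.27% of all tested genes, and 1 fell (median change 0.66). Without 0 dpa replicate 1 and 21 dpa replicate 2, 10 were called higher. The gene hoxc11a was at 10.9, 10.18 and 9.97 scaled TPM at 21 dpa, against 2.89, 2.51 and 3.11 scaled TPM at 0 dpa (log2 change 1.57, SE 0.17, limma adjusted p = 6.16e-05). Spread within each group was small against the gap. A neighbour in the family, hoxc12a, was at 88.8, 71.4 and 117 scaled TPM at 21 dpa, against 29.3, 31.2 and 39.4 scaled TPM at 0 dpa (log2 change 1.43, SE 0.23, limma adjusted p = 0.00106). The connexin gene cx43, needed for bone segment length in zebrafish, was at 19.7, 24.9 and 16 scaled TPM at 21 dpa, against 6.15, 5.09 and 5.29 scaled TPM at 0 dpa (log2 change 1.69, SE 0.18, limma adjusted p = 4.48e-05). The guidance gene sema3d, which acts downstream of cx43 in fins, averaged 5.03 ± 0.487 scaled TPM at 21 dpa and 1.55 ± 0.128 scaled TPM at 0 dpa (SD, n = 3 each), with a difference of 1.24 in log2 (SE 0.22; limma adjusted p = 0.00241). The one member that fell was kcnk5b, a potassium channel gene whose activating mutations lengthen fins, at 1.68, 1.61 and 1.81 scaled TPM at 21 dpa, against 4.33, 2.86 and 3.94 scaled TPM at 0 dpa (log2 change -0.79, SE 0.15, limma adjusted p = 0.00337).

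Of 81 tested genes of the Wnt, Bmp, Hedgehog, retinoic acid and Igf pathways 20 (24.7%) rose, 4 (4.94%) fell and 57 were not called (median change 0.38). Of all tested genes 6.27% rose and 7.33% fell. Without 0 dpa replicate 1 the number called higher was 12, without 21 dpa replicate 2 it was 11, and without both it was 8. The ligand gene wnt7aa was at 10.4, 8.70 and 13.5 scaled TPM at 21 dpa, against 1.80, 1.1 and 2.78 scaled TPM at 0 dpa (log2 change 2.06, SE 0.25, limma adjusted p = 0.000134), and the secreted Wnt inhibitor gene dkk1a at 10.4, 4.84 and 10.8 scaled TPM at 21 dpa, against 1.27, 1.62 and 0.927 scaled TPM at 0 dpa (log2 change 2.04, SE 0.26, limma adjusted p = 0.000196). Ligand and inhibitor were thus both higher in every 21 dpa library. The Bmp inhibitor gene smad6a averaged 2.75 ± 0.683 scaled TPM at 21 dpa and 0.752 ± 0.313 scaled TPM at 0 dpa (SD, n = 3 each), with a difference of 1.1 in log2 (SE 0.21; limma adjusted p = 0.00374). The pseudoreceptor gene bambib, which dampens Bmp and Tgf-beta signals, was at 16.6, 12.6 and 15.0 scaled TPM at 21 dpa, against 56.7, 46.5 and 36.8 scaled TPM at 0 dpa and fell, by a log2 value of 1.58 (SE 0.19, limma adjusted p = 0.00012). The others that fell were stra6, igf1 and crabp2a, genes for a retinol transporter, a growth factor and a retinoic acid binding protein, with changes of -0.83, -0.67 and -0.73 (limma adjusted p = 0.00497, 0.034 and 0.0484). Of the 15 fits that left out 1 library, stra6 was called in 15, igf1 in 11 and crabp2a in 4. For Wnt targets, axin2 and lef1 gave 0.61 and 0.53 (adjusted p = 0.0553 and 0.177 by limma).

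Most of the proliferation genes tested were within 2-fold on the log2(scaled TPM + 1) scale, which understates changes at low levels. Of 34 tested cell cycle genes 2 (5.88%) rose and 1 (2.94%) fell, against 6.27 and 7.33% of all tested genes. On that scale 28 lay within 2-fold, and the median change was -0.05. The proliferation marker mki67 was at 0.817, 0.725 and 0.876 scaled TPM at 21 dpa, against 0.846, 1.03 and 1.05 scaled TPM at 0 dpa, with an interval of -0.47 to 0.22, against a mean of 6.81 at 4 dpa. So low a level keeps the interval of mki67 narrow on that scale, and a return within 2-fold in TPM itself is not shown. The replication clamp gene pcna averaged 23.1 at 21 dpa and 18.5 at 0 dpa (95% interval -0.11 to 0.71). Those called were the cyclin genes ccne1 and ccnd2a, with changes of 0.80 and 0.63, and the ribonucleotide reductase gene rrm1, with -0.57 (limma adjusted p = 0.00386, 0.0476 and 0.0233). Of the 15 fits that left out 1 library, ccne1 was called in 15, rrm1 in 11 and ccnd2a in 3.

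**Figure D3:**
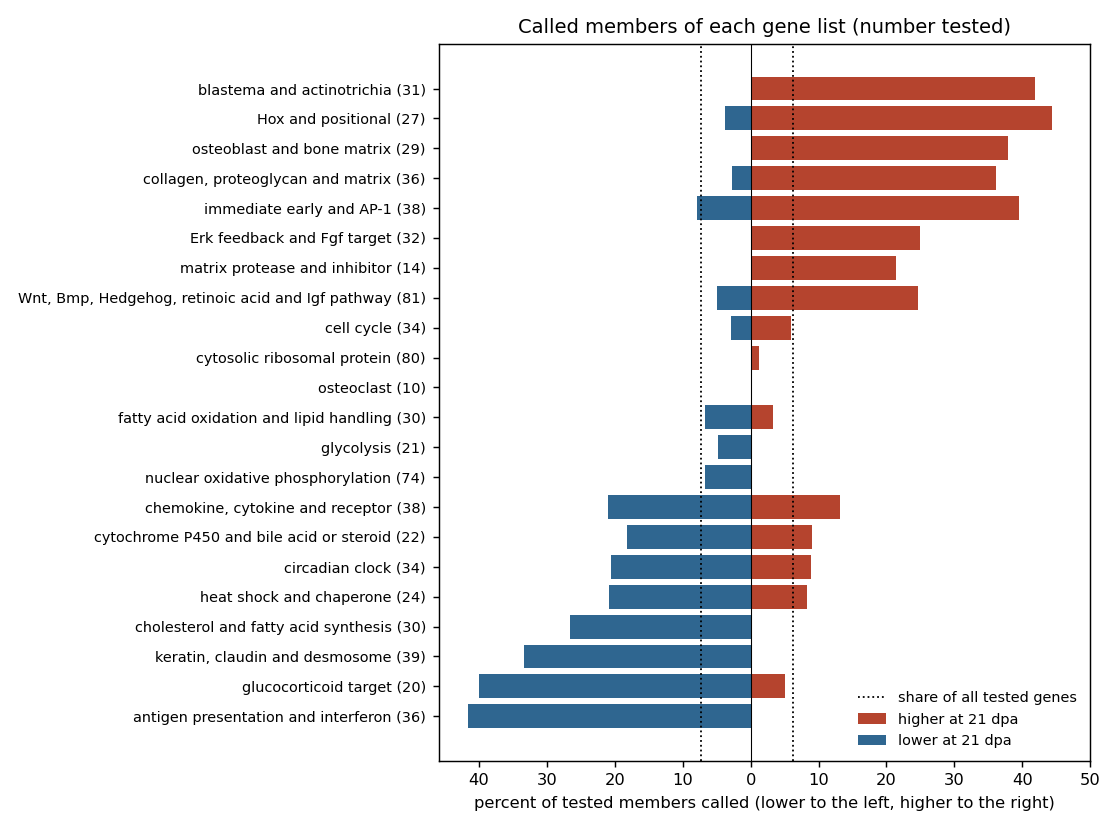
Bars give the percent of tested members of each of the 22 gene lists called higher (right) or lower (left) at 21 dpa, and dotted lines mark the shares over all tested genes, 6.27 and 7.33%. Hox and positional, blastema and immediate early lists reach farthest right, and antigen presentation and glucocorticoid lists farthest left.

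Some targets of glucocorticoids, the steroid hormones of the stress response, were lower at 21 dpa. Of 20 tested genes of that list 8 (40%) fell, 1 rose and 11 were not called, against 7.33% of all tested genes that fell, and the median change was -0.48. The number called lower was 4 in deposited TPM without scaling, 1 with the rRNA gene dropped and TPM rescaled, and 0 by limma with library set as a covariate. The gene fkbp5, an Hsp90 co-chaperone induced by glucocorticoids in mammals, was at 19.9, 32.6 and 57.1 scaled TPM at 21 dpa, against 277, 222 and 315 scaled TPM at 0 dpa. It fell, by a log2 value of 2.97 (SE 0.31, limma adjusted p = 4.63e-05), and the highest 21 dpa library was far below the lowest 0 dpa library. The Kruppel-like factor gene klf9 was at 7.27, 14.2 and 25.1 scaled TPM at 21 dpa, against 59.1, 93.9 and 74.4 scaled TPM at 0 dpa (log2 change -2.35, SE 0.36, limma adjusted p = 0.000806). The kinase gene pdk2b, which inhibits pyruvate dehydrogenase, averaged 2.02 ± 0.650 scaled TPM at 21 dpa and 6.78 ± 0.809 scaled TPM at 0 dpa (SD, n = 3 each), with a difference of -1.38 in log2 (SE 0.22; limma adjusted p = 0.00111). The gluconeogenic gene pck1 was at 0.208, 0.129 and 0.598 scaled TPM at 21 dpa, against 1.68, 2.80 and 1.76 scaled TPM at 0 dpa (log2 change -1.23, SE 0.21, limma adjusted p = 0.00162). The member that rose was dusp1, described above. The receptor gene itself, nr3c1, was at 30.0, 28.5 and 32.2 scaled TPM at 21 dpa, against 18.8, 23.8 and 27.6 scaled TPM at 0 dpa, with 95% interval 0.02 to 0.72 and an adjusted p of 0.152 by limma. In fkbp5 and klf9 replicate 1 was the lowest and replicate 3 the highest of the 21 dpa libraries, and the groups did not overlap in either.

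Circadian clock genes split in direction. Of 34 tested 3 (8.82%) rose and 7 (20.6%) fell, against 6.27 and 7.33% of all tested genes. The median change was -0.01, which relative to all genes was negative with library set as a covariate (-0.25) and positive under the scalings tried. Without 0 dpa replicate 1 and 21 dpa replicate 2 together 1 was called higher and 3 lower. Clock transcripts vary over the day and the labels give no hour of sampling. The repressor gene bhlhe40 was at 93.8, 107 and 76.6 scaled TPM at 21 dpa, against 25, 27.6 and 27.5 scaled TPM at 0 dpa (log2 change 1.74, SE 0.18, limma adjusted p = 3.35e-05), with every 21 dpa library above 0 dpa. The nuclear receptor gene nr1d2a was at 12.0, 16.8 and 25.9 scaled TPM at 21 dpa, against 77.1, 104 and 83.8 scaled TPM at 0 dpa (log2 change -2.27, SE 0.32, limma adjusted p = 0.000431). Its relative nr1d1 had the other sign, at 29.6, 39.8 and 56.2 scaled TPM at 21 dpa, against 16.6, 20.7 and 26.1 scaled TPM at 0 dpa (log2 change 0.93, SE 0.26, limma adjusted p = 0.027). The repressor genes nfil3-6 and nfil3-5 fell by 1.16 and 1.14 on the log2 scale (limma adjusted p = 0.00783 and 0.00858). Core period genes gave changes of 0.10 for per1a, 0.48 for per1b, -0.24 for per2 and 0.31 for per3, with the lowest limma adjusted p at 0.201.

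Antigen presentation and interferon genes, which display peptides to T cells or answer viral infection, were lower in many members. Of 36 tested 15 (41.7%) fell and none rose by limma, adjusted or not, against 7.33% of all tested genes that fell, and the median change was -0.79. Without 0 dpa replicate 1 the number was 12, without 21 dpa replicate 2 it was 11, and without both it was 9. The interferon-induced gene mxe was at 0.363, 0.180 and 0.334 scaled TPM at 21 dpa, against 2.67, 3.23 and 4.38 scaled TPM at 0 dpa (log2 change -1.76, SE 0.20, limma adjusted p = 7.08e-05), near the floor at 21 dpa. The interferon factor gene irf7 was at 7.33, 8.37 and 9.71 scaled TPM at 21 dpa, against 31.3, 23.2 and 38.4 scaled TPM at 0 dpa (log2 change -1.73, SE 0.27, limma adjusted p = 0.000776). For stat1b, which carries the interferon signal, the libraries were at 2.29, 2.32 and 2.31 scaled TPM at 21 dpa, against 10.5, 6.71 and 13.7 scaled TPM at 0 dpa (log2 change -1.72, SE 0.26, limma adjusted p = 0.000717). None of these 3 genes had overlapping groups. The summed level of the list was 6072 to 7901 scaled TPM at 21 dpa, against 12665 to 20452 at 0 dpa.

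Chemokine, cytokine and receptor genes moved both ways: 5 of 38 (13.2%) rose and 8 (21.1%) fell, against 6.27 and 7.33% of all tested genes. The median change was -0.13, or 0.12 above all genes with library set as a covariate. Without either 0 dpa replicate 1 or 21 dpa replicate 2 the number called lower was 3. Besides cxcl8b.1, the chemokine receptor gene cxcr4a rose, with libraries at 29.9, 23.9 and 20.7 scaled TPM at 21 dpa, against 4.82, 6.45 and 3.95 scaled TPM at 0 dpa (log2 change 2.09, SE 0.20, limma adjusted p = 2.39e-05). The granulocyte growth factor gene csf3a was listed at 2.02, 2.47 and 3.44 scaled TPM at 21 dpa, against 0, 0.590 and 0.348 scaled TPM at 0 dpa (log2 change 1.48, SE 0.27, limma adjusted p = 0.00303). The gene ccl19b, a chemokine that draws lymphocytes and dendritic cells, was at 25.2, 22.6 and 24.1 scaled TPM at 21 dpa, against 399, 171 and 146 scaled TPM at 0 dpa (log2 change -3.12, SE 0.37, limma adjusted p = 0.000122). Levels were nearly even among the 21 dpa libraries, whereas 0 dpa replicate 1 was the highest by far. The related ccl19a.1 was at 25.8, 10.6 and 34.2 scaled TPM at 21 dpa, against 234, 71.2 and 142 scaled TPM at 0 dpa (log2 change -2.60, SE 0.46, limma adjusted p = 0.00234). The ligand of Cxcr4 receptors, cxcl12a, was at 54.4, 65.9 and 67.1 scaled TPM at 21 dpa, against 225, 215 and 141 scaled TPM at 0 dpa and fell, by a log2 value of 1.59 (SE 0.25, limma adjusted p = 0.000861). Receptor and ligand therefore differed in opposite directions. The acute-phase gene saa averaged 17.1 ± 7.59 scaled TPM at 21 dpa and 121 ± 70.8 scaled TPM at 0 dpa (SD, n = 3 each), with a difference of -2.69 in log2 (SE 0.48; limma adjusted p = 0.00241). Macrophage markers gave no call among 15 tested by limma (3 lower at an unadjusted p under 0.05), with sums of 401 to 759 scaled TPM at 21 dpa, against 660.1 to 1524 at 0 dpa. Neutrophil markers gave no call among 13 tested by limma, with 2 higher and 2 lower at an unadjusted p under 0.05 (median change -0.14). Their sums overlapped, at 221 to 492 scaled TPM at 21 dpa and 294 to 560 at 0 dpa. T and B lymphocyte markers gave 2 higher and 2 lower of 13 (median change -0.40), with sums of 107 to 127 at 21 dpa, against 149.8 to 202 at 0 dpa. Those higher were gata3 and dusp2, which is also in the Erk list, and those lower were coro1a and lck. The part of such cells in the immune results was not tested.

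Sterol and bile acid genes held several of the largest falls. The gene cyp8b2, of the sterol 12-alpha-hydroxylase family, was at 4.78, 3.09 and 4.77 scaled TPM at 21 dpa, against 99.8, 40.4 and 78.6 scaled TPM at 0 dpa (log2 change -3.75, SE 0.36, limma adjusted p = 2.66e-05). Another of the family, cyp8b3, was at 6.56, 5.88 and 9.39 scaled TPM at 21 dpa, against 85.1, 69.7 and 65.0 scaled TPM at 0 dpa (log2 change -3.18, SE 0.37, limma adjusted p = 9.29e-05), and cyp8b1 averaged 0.917 at 21 dpa and 5.89 at 0 dpa (limma adjusted p = 0.000666). All 3 genes were lower in every 21 dpa library; reads they share could have been divided among them. The bile acid synthesis gene hsd3b7 was at 41.3, 35.5 and 47.6 scaled TPM at 21 dpa, against 249.9, 165 and 189 scaled TPM at 0 dpa (log2 change -2.24, SE 0.31, limma adjusted p = 0.000324). The steroid 5-alpha-reductase gene srd5a2a was at 119.6, 99.3 and 117 scaled TPM at 21 dpa, against 1172, 625 and 523 scaled TPM at 0 dpa (log2 change -2.69, SE 0.29, limma adjusted p = 5.68e-05). The sulfotransferase gene sult2st3 was at 1.70, 2.48 and 1.21 scaled TPM at 21 dpa, against 41.4, 13.9 and 41.4 scaled TPM at 0 dpa (log2 change -3.44, SE 0.81, limma adjusted p = 0.0114), but with library set as a covariate its change was 0.68. The nucleotidase gene entpd8, with the largest fall among the named genes, was at 1.43, 1.13 and 1.19 scaled TPM at 21 dpa, against 49.5, 19.5 and 36.7 scaled TPM at 0 dpa (log2 change -3.92, SE 0.61, limma adjusted p = 0.000806). Both sult2st3 and entpd8 were near the floor at 21 dpa. In contrast, cyp7a1, which starts bile acid synthesis, was at 6.80, 3.75 and 5.06 scaled TPM at 21 dpa, against 3.32, 2.85 and 2.85 scaled TPM at 0 dpa, with an adjusted p of 0.23 by limma. Over the 22 tested genes of the P450 and bile acid list, 2 (9.09%) rose and 4 (18.2%) fell, against 6.27 and 7.33% of all tested genes. The median change was -0.10, or 0.05 above all genes with library set as a covariate.

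Cholesterol and fatty acid synthesis genes had 8 of 30 members (26.7%) lower, against 7.33% of all tested genes, and none higher by limma, adjusted or not. The median change was -0.32, and 6 were lower without either 0 dpa replicate 1 or 21 dpa replicate 2. The number lower was 2 by limma in deposited TPM, 0 with the rRNA gene dropped and TPM rescaled, and 8 after quantile normalization. Relative to all genes the median was -0.28, and -0.07 with library set as a covariate. The rate-limiting enzyme gene hmgcra was at 0.784, 1.69 and 1.73 scaled TPM at 21 dpa, against 4.14, 10.1 and 7.77 scaled TPM at 0 dpa (log2 change -1.75, SE 0.31, limma adjusted p = 0.00241). The gene insig1, whose product holds back the Srebp factors when sterols are high, was at 1.37, 1.60 and 1.76 scaled TPM at 21 dpa, against 5.25, 5.99 and 4.87 scaled TPM at 0 dpa (log2 change -1.3, SE 0.17, limma adjusted p = 0.000186), and srebf2, the factor that raises the pathway, at 4.54, 7.32 and 6.34 scaled TPM at 21 dpa, against 10.7, 22.3 and 15.1 scaled TPM at 0 dpa (log2 change -1.24, SE 0.26, limma adjusted p = 0.00652). Groups did not overlap for these 3 genes. Fatty acid oxidation and lipid handling genes had 1 (3.33%) higher and 2 (6.67%) lower of 30, and glycolysis genes had 1 (4.76%) lower of 21. These shares were below the 6.27 and 7.33% of all tested genes. Those that fell included the apolipoprotein gene apoeb, with -1.19, and pgam1a of glycolysis, with -0.95 (limma adjusted p = 0.00791 and 0.0405). The call of pgam1a was lost without 0 dpa replicate 1 and without 21 dpa replicate 2.

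A minority of the epithelial genes tested were lower at 21 dpa. Of 39 tested keratin, claudin and desmosome genes 13 (33.3%) fell, against 7.33% of all tested genes, and 26 were not called. None rose by limma (1 at an unadjusted p under 0.05), and the median change was -0.66. With the rRNA gene dropped and TPM rescaled, 2 were called higher and 5 lower. After quantile normalization 3 were called higher and 8 lower. The median relative to all genes was then -0.21, against -0.63 in the fit reported. The number called lower was 8 without 0 dpa replicate 1 or without 21 dpa replicate 2, and 3 without both. The desmosome cadherin gene dsc2l was at 20.1, 39.0 and 35.6 scaled TPM at 21 dpa, against 93.6, 162 and 126 scaled TPM at 0 dpa (log2 change -2.0, SE 0.32, limma adjusted p = 0.00102). Another desmosome cadherin gene, dsg2.1, was at 64.7, 112 and 121 scaled TPM at 21 dpa, against 233, 291 and 241 scaled TPM at 0 dpa (log2 change -1.40, SE 0.29, limma adjusted p = 0.0053). In both, the highest 21 dpa library was below the lowest 0 dpa library. The keratin gene krt97 was at 1044, 996 and 1128 scaled TPM at 21 dpa, against 3081, 2328 and 1769 scaled TPM at 0 dpa (log2 change -1.14, SE 0.25, limma adjusted p = 0.00754). Other epithelial genes did not pass: krt5 was at 2251, 3627 and 2900.0 scaled TPM at 21 dpa, against 3342, 3680.4 and 3684 scaled TPM at 0 dpa, and the adherens junction gene cdh1 at 54.6, 72.9 and 63.5 scaled TPM at 21 dpa, against 51.3, 79.9 and 75.9 scaled TPM at 0 dpa (95% interval -0.89 to 0.27 and 95% interval -0.62 to 0.42). Markers of superficial epidermis and mucous cells summed to 43352 to 62234 scaled TPM at 21 dpa, against 57206 to 151293 at 0 dpa. Of 16 tested 4 (25%) were lower, and none was called by limma without both libraries just named. Of these 4, agr1, agr2 and evpla are also among the 13 that fell in the list above. Markers of basal epidermis summed to 8411 to 9484 at 21 dpa, against 8943 to 11078 at 0 dpa. Of the 12 basal markers frem2b rose by 0.82, while the hemidesmosome integrin genes itga6b and itgb4 fell by 1.3 and 1.17 on the log2 scale (limma adjusted p = 0.00156, 0.00241 and 0.025), and cldni was also lower. The gene cldni is also among the 13 of the keratin, claudin and desmosome list that fell. The part of epidermal share in the result of that list was not tested.

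Genes of ribosomes and mitochondria gave few calls, which does not show a return. The 95% interval lay inside 2-fold for 22 of 80 ribosomal protein genes and 17 of 74 oxidative phosphorylation genes. Estimated changes were negative for 74 and 70 of them. Of 80 ribosomal protein genes 1 rose, rps27.2, which was at 799, 906 and 325 scaled TPM at 21 dpa, against 389, 192 and 211 scaled TPM at 0 dpa (log2 change 1.3, SE 0.39, limma adjusted p = 0.0414). Its groups overlapped, and a paralog could share its reads. The median of the list was -0.33, but relative to all genes it was 0.06 after quantile normalization and 0.19 with library set as a covariate. Of 74 nuclear genes of oxidative phosphorylation 5 (6.76%) fell, a share below the 7.33% of all tested genes, and none rose by limma, adjusted or not. The median was -0.49, but 0.03 above all genes with library set as a covariate. Among those that fell, the cytochrome c gene cycsb was at 50.9, 33.5 and 47.6 scaled TPM at 21 dpa, against 304, 119.8 and 133 scaled TPM at 0 dpa (log2 change -1.94, SE 0.38, limma adjusted p = 0.00445). Replicate 1 of 0 dpa, the library with the highest ribosomal protein sum, was also the highest for cycsb, and 2 members were called without it. Heat shock and chaperone genes had 2 (8.33%) higher and 5 (20.8%) lower of 24, against 6.27 and 7.33% of all tested genes. The number lower was 3 without 0 dpa replicate 1, 2 without 21 dpa replicate 2 and 0 by limma in deposited TPM. Those that rose were serpinh1a and serpinh1b, collagen chaperones of the endoplasmic reticulum, and in serpinh1b the libraries were at 20.6, 13.6 and 10.24 scaled TPM at 21 dpa, against 4.33, 4.95 and 3.30 scaled TPM at 0 dpa (log2 change 1.57, SE 0.24, limma adjusted p = 0.000873). Of those that fell, hspa4a averaged 0.927 ± 0.272 scaled TPM at 21 dpa and 2.83 ± 0.497 scaled TPM at 0 dpa (SD, n = 3 each), with a difference of -0.99 in log2 (SE 0.24; limma adjusted p = 0.0126).

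Marker lists of other cell types gave a few calls. Melanophore markers summed to 63.4 to 76.3 scaled TPM at 21 dpa, against 36.2 to 44.5 at 0 dpa, and 2 of 8 rose. These were the pigment cell factor gene mitfa and the melanocortin receptor gene mc1r, with changes of 0.72 and 1.04 (limma adjusted p = 0.0422 and 0.0459), and neither was called without 21 dpa replicate 2. Of 15 iridophore and xanthophore markers 2 rose, including aox5 at 5.46, 6.25 and 6.79 scaled TPM at 21 dpa, against 2.27, 1.66 and 1.56 scaled TPM at 0 dpa (log2 change 1.34, SE 0.29, limma adjusted p = 0.00676). Of 11 tested Schwann cell and nerve markers 2 (18.2%) rose, mpz and tubb5, and none fell by limma, adjusted or not. Sums of this list overlapped, at 95.3 to 116 scaled TPM at 21 dpa and 75.5 to 119 at 0 dpa. The myelin gene mpz, a Schwann cell marker, averaged 5.34 ± 1.81 scaled TPM at 21 dpa and 1.93 ± 0.154 scaled TPM at 0 dpa (SD, n = 3 each), with a difference of 1.07 in log2 (SE 0.20; limma adjusted p = 0.00351). Fibroblast markers had 6 of 15 (40%) higher and 2 (13.3%) lower, against 6.27 and 7.33% of all tested genes. Their sums were 1608 to 1772 at 21 dpa, against 1503 to 2899 at 0 dpa. Of the 6, twist1a is also in the blastema list, and lum, col1a2, dcn and col1a1a are in the collagen list. Both lower ones, cxcl12a and ccl25b, are in the chemokine list. The number higher was 3 without 0 dpa replicate 1, 2 without 21 dpa replicate 2 and 1 in deposited TPM. Among those that rose was the growth factor receptor gene pdgfra, by 1.04 (limma adjusted p = 0.00446). Endothelial markers summed to 54.6 to 59.0 at 21 dpa, against 45.5 to 48.5 at 0 dpa, with 1 of 17 (5.88%) higher, fli1a, against 6.27% of all tested genes. That call was lost without 0 dpa replicate 1 and without 21 dpa replicate 2. Of 19 ionocyte markers 6 were tested and 1 fell, the carbonic anhydrase gene ca2, at 11.9, 11.4 and 12.1 scaled TPM at 21 dpa, against 54.9, 74.3 and 39.5 scaled TPM at 0 dpa (log2 change -2.11, SE 0.24, limma adjusted p = 9.38e-05). Of 4 tested red blood cell markers 1 rose, cahz, and 2 were called higher with library set as a covariate. Sums of these markers were 72.3 to 91.1 scaled TPM at 21 dpa and varied from 9.93 to 82.3 at 0 dpa. Of 3 tested striated muscle markers actc1a rose and ckma fell. Red blood cell and striated muscle lists were mostly below the filter, with 6 and 7 of their members at 0 in all 6 libraries. Apart from the ammonia transporter gene rhcgb of ionocytes, no marker of the other lists that was in the table was at 0 in all 6 libraries.

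**Figure D4:**
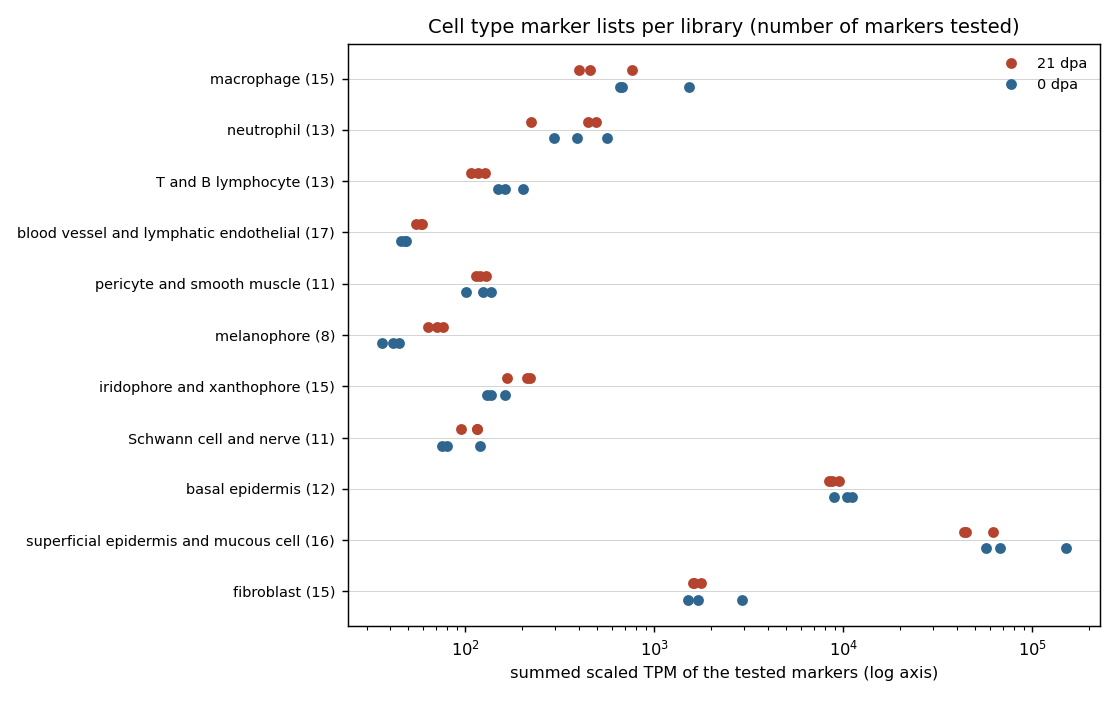
Summed scaled TPM (log axis) of the tested markers of 11 cell types in each library, with 21 dpa above 0 dpa in each row and the number of markers in brackets. Sums of melanophores, endothelium, and iridophores and xanthophores at 21 dpa lie above those at 0 dpa, and lymphocyte sums lie below them. In all rows but those of melanophores, endothelium, and iridophores and xanthophores, 0 dpa replicate 1 gives the highest sum.

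For many called genes the 21 dpa mean was the highest or lowest of the 5 time points. Among the 642 genes called higher the mean was highest at 21 dpa in 438 (68.2%), and among the 750 called lower it was lowest at 21 dpa in 490 (65.3%). Over all tested genes the shares were 20.4 and 22.8%, and the choice of genes called at 21 dpa favours both. The courses of single genes took different forms. Means of foxq1a were 4.75, 4.50 and 4.21 at 4, 7 and 14 dpa, against 48.7 at 21 dpa and 1.53 at 0 dpa, and the 21 minus 14 dpa change was 3.26 (limma adjusted p = 3.26e-06). Means of jdp2b and nr4a1 at 14 dpa were 22.5 and 2.70, with 21 minus 14 dpa changes of 3.68 (limma adjusted p = 0.00518) and 2.19 (limma adjusted p = 0.000799). For mfap2 the means were 249, 139 and 101 at 4, 7 and 14 dpa, and 21 dpa, at 95.9, was near 14 dpa, with a change of -0.04 (limma adjusted p = 0.994). Means of hoxc11a increased with time, with 2.96, 4.54 and 7.44 at 4, 7 and 14 dpa.

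Falls had several courses as well. The means of cyp8b2 were 17.6, 39.8 and 69.2 at 4, 7 and 14 dpa, so its level at 14 dpa was near that of 0 dpa, and the 21 minus 14 dpa change was -3.75 (limma adjusted p = 0.00012). The same held for entpd8, at 34.2 at 14 dpa, with a change of -3.94 (limma adjusted p = 0.00413). The chemokine gene ccl19b had means of 15.9, 96.9 and 90.1 at 4, 7 and 14 dpa, low at 4 dpa and again at 21 dpa. For fkbp5 they were 136, 181 and 123 at 4, 7 and 14 dpa, and for srd5a2a 300.0, 334 and 183 at 4, 7 and 14 dpa. The folate enzyme gene mthfd2 was above its 0 dpa mean at 4 and 7 dpa, with means of 42.2, 53.2 and 11.5 at 4, 7 and 14 dpa. In all, 144 genes (1.41%) were called between 21 and 14 dpa, which lie in the same library set. This contrast shares the 21 dpa libraries with the one against 0 dpa.

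**Figure D5:**
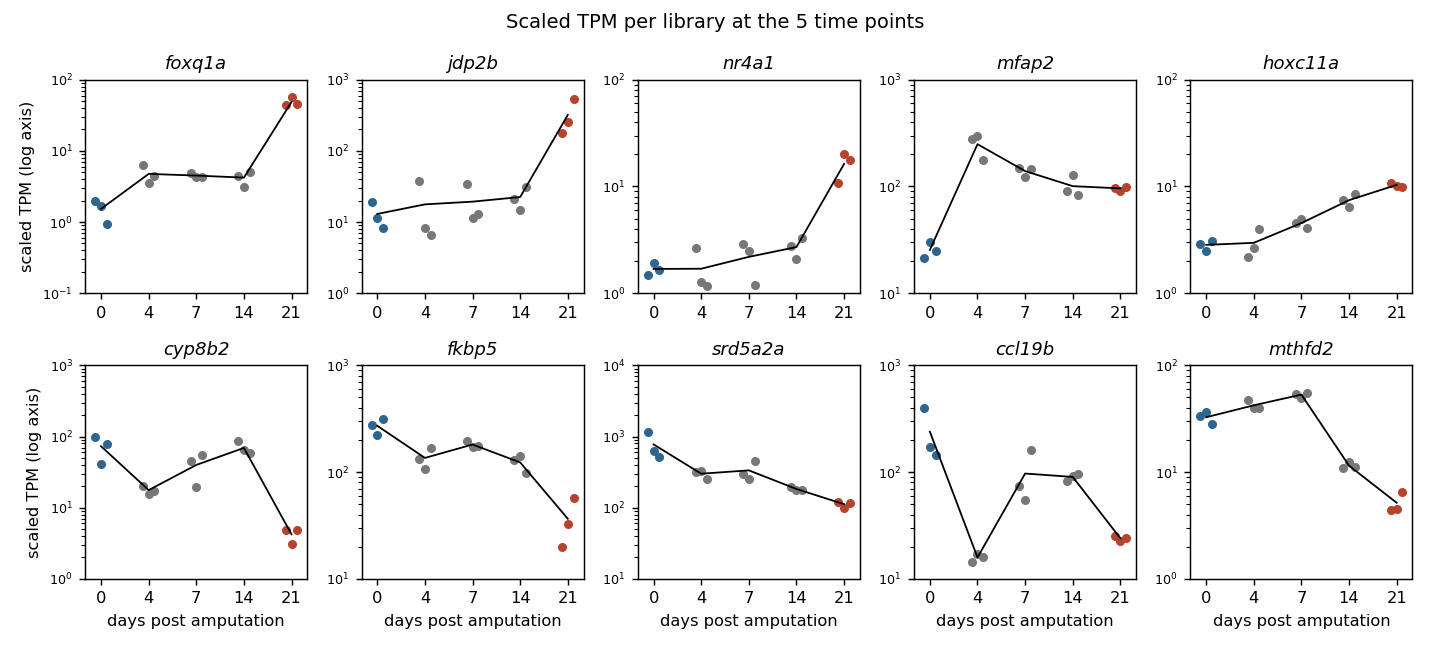
Scaled TPM on a log axis against days post amputation for 10 genes, with a point per library and a line through the means. The upper row shows genes higher at 21 than at 0 dpa, with foxq1a, jdp2b and nr4a1 highest at 21 dpa and mfap2 highest at 4 dpa, and the lower row shows genes lower at 21 dpa.

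Of the 1392 called genes, 656 were called in each of the 15 fits that left out 1 library, 281 higher and 375 lower. Across those fits and the 14 other alternatives 21 genes were called every time, 11 higher and 10 lower; they are named for that reason, after their values were seen. Besides genes given above (foxq1a, foxq1b, cxcl8b.1, ptgs2b, ch25h and klf11a), the higher ones were sp8b, foxc1b, plekhs1, tnfsf10 and rgma. The zinc finger factor gene sp8b, known for roles in limb and fin outgrowth, was at 8.77, 9.88 and 9.63 scaled TPM at 21 dpa, against 1.06, 1.28 and 1.69 scaled TPM at 0 dpa (log2 change 2.16, SE 0.17, limma adjusted p = 5.25e-06). The death receptor ligand gene tnfsf10 was at 8.90, 7.60 and 6.42 scaled TPM at 21 dpa, against 1.05, 0.660 and 1.48 scaled TPM at 0 dpa (log2 change 2.08, SE 0.19, limma adjusted p = 2.13e-05). Both were separated from 0 dpa in each library. The lower ones were paqr8, klf3, slc16a12b, ptp4a3a, b3gnt7l, abcf2a, mthfd2, hif1al, impdh1a and slc7a3. The Kruppel-like factor gene klf3 was at 7.52, 11.9 and 9.70 scaled TPM at 21 dpa, against 53.3, 46.8 and 45.5 scaled TPM at 0 dpa (log2 change -2.23, SE 0.19, limma adjusted p = 8.27e-06). The phosphatase gene ptp4a3a was at 22.8, 22.8 and 29.4 scaled TPM at 21 dpa, against 122, 145 and 118 scaled TPM at 0 dpa (log2 change -2.32, SE 0.18, limma adjusted p = 3.8e-06). For hif1al the libraries were at 8.31, 11.6 and 9.29 scaled TPM at 21 dpa, against 59.4, 78.9 and 51.9 scaled TPM at 0 dpa (log2 change -2.58, SE 0.26, limma adjusted p = 3.48e-05). The amino acid transporter gene slc7a3 was at 5.11, 6.94 and 6.13 scaled TPM at 21 dpa, against 67.1, 41.2 and 51.6 scaled TPM at 0 dpa (log2 change -2.92, SE 0.22, limma adjusted p = 3.45e-06). Every 21 dpa library lay below the 0 dpa libraries in these 4 genes. In the fit with library set as a covariate foxq1a changed by 4.38 (limma adjusted p = 0.000551) and slc7a3 by -2.54 (limma adjusted p = 0.0232), while entpd8 changed by -0.91 (limma adjusted p = 0.751) and irf7 by -0.85 (limma adjusted p = 0.594). Over the 14 alternatives other than leaving out 1 library, limma adjusted p ranged from 3.95e-10 to 0.000551 for foxq1a, 1.16e-07 to 0.0232 for slc7a3, 0.000156 to 0.751 for entpd8 and 5.22e-05 to 0.594 for irf7. Among the 22 lists, that covariate left a called member in the immediate early list and in the chemokine list and in no other. In deposited TPM without scaling 9 immediate early genes, 2 Hox and positional genes and no osteoblast gene were called higher by limma, and 4 antigen presentation genes and 1 keratin list gene were called lower.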

How the data were processed

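Bulk RNA-seq of pooled WT fin tissue was deposited by the authors as 1 table of TPM for 14836 genes and 15 libraries; TPM keeps no depth, so relative depth was read from the steps of low values (lowest 25% of values, 0.5% window). Reads were trimmed with Trim Galore 0.6.7 and cutadapt 3.5 and quantified with Salmon 1.4.0 on danRer11, per the submitters' processing notes. Library totals are not given in the sources used here.

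The rRNA gene zgc:158463 was dropped, and the libraries were scaled by median-of-ratios size factors from the 10773 genes above 0 in every library. The 10234 genes that reached a TPM of 1 in 3 or more libraries were tested, as log2(scaled TPM + 1), with limma 3.58.1 in R 4.3.3: 1 mean per time point over all 15 libraries, a mean-variance trend and Benjamini-Hochberg adjustment at 0.05. The treat test used a bound of 2-fold. Summaries used Python 3.11.15 with pandas 2.3.3, numpy 2.4.6 and scipy 1.17.1, and figures matplotlib 3.10.9. The fit was run on 10 simulated data sets in which 200 of 10234 genes were changed by 2 in log2 at 21 dpa. A median of 182 of the 200 were called, with a median of 10 false calls. That change is larger than the median change of the called genes, 0.85 for rises and -0.95 for falls. Recovery of smaller changes was not tested. The changed genes were drawn only from genes above a minimum mean level, so recovery at a low level was not tested either. The simulated libraries had independent noise and no library sets, so this cannot speak to the overlap of set and time.

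The 22 gene lists, the 15 marker lists and the genes compared were chosen with earlier results of these data known. Picked for naming were the 15 largest rises and falls among called, non-overlapping genes with a mean of at least 10 scaled TPM in the higher group. Up to 4 called genes per list and direction, by adjusted p, were added. Not all genes so picked are named, and some called genes outside this rule are. Symbols that name a clone or locus (2 and 3 of the 15) were not named. Uncalled members are given with values. The 29 alternatives comprised 15 that left out 1 library and 14 others, 2 of them chosen after seeing the data. The planned search for promoter motifs was not run.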

Additional observations from a re-analysis of the deposited data

How the results depend on the processing

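The 159 genes picked by the naming rule kept direction and call in 2172 of 2385 values when 1 library was left out, and fell short of the threshold in 213. They include the clone or locus symbols and other genes not named here, and lack some genes that are named. Under the 14 other alternatives they kept both in 1742 of 2201, fell short in 458, and 1 changed sign: sult2st3 with library set as a covariate, at 0.68 (limma adjusted p = 0.918, against 0.0114 in the fit reported; range over alternatives 0.00175 to 0.918). With that covariate 11 of the 159 kept their call.

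Of the main counts (1392 called, 642 higher, 750 lower, 38 beyond 2-fold, 6654 within), those that moved by over 1.5 times were these. Deposited TPM gave 198 called, 75 higher, 123 lower and 12 beyond 2-fold. Rescaling TPM to its usual total after the rRNA gene was dropped gave 499, 351, 148 and 24, with 3709 within. The 6 libraries alone gave 692, 319, 373 and 16. Library weights gave 2499, 1249, 1250.0 and 67. Library set as a covariate gave 31, 16, 15 and 3, with 2741 within. Leaving out 21 dpa replicate 2 and 0 dpa replicate 1, chosen after seeing the data, gave 642, 294, 348 and 19. A pseudocount of 5 gave 16 beyond 2-fold and one of 0.1 gave 4358 within. No filter, with 14394 genes tested, gave 10657 within; a TPM of at least 5, with 6042 tested, gave 359 higher and 3349 within. Leaving out 1 library gave 884 (without 21 dpa replicate 2) to 1581 called, 399 to 738 higher, 485 to 853 lower, 24 to 46 beyond and 5763 to 6912 within. Apart from the numbers of genes and libraries, the cause was not tested.

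Replicate numbers are shared between 21 and 0 dpa, and the labels do not say whether they pair the samples. The deviations of same-numbered libraries correlated at 0.651, 0.413 and 0.0876, and those of other pairs at -0.582 to 0.336. Replicate 3 of 21 dpa correlated best with 0 dpa replicate 2 (0.226). Whether the numbers pair the samples was not tested, and the reported fit does not use them. With the number as a replicate block 1231 genes were called, 575 higher and 656 lower. Depth could not be turned into read counts, so low genes have unknown counting error.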

Other observations

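Further gene groups were compared between 21 and 0 dpa with lists chosen after the values were seen, so their counts are descriptions, to be set beside the 6.27% of all tested genes called higher and the 7.33% called lower. Genes of amino acid transport, serine synthesis and one-carbon metabolism were lower in 13 of 36 tested members and higher in none by limma (2 at an unadjusted p under 0.05), with a median change of -0.26, and 12 were lower without 0 dpa replicate 1 and 21 dpa replicate 2. The folate enzyme gene mthfd2 was at 4.43, 4.48 and 6.57 scaled TPM at 21 dpa, against 33.6, 36.2 and 28.2 scaled TPM at 0 dpa (log2 change -2.46, SE 0.18, limma adjusted p = 2.34e-06). Its groups were far apart. The heavy-chain gene slc3a2b, whose product carries several amino acid transporters to the cell surface, was at 9.25, 7.81 and 15.8 scaled TPM at 21 dpa, against 128, 55.9 and 67.4 scaled TPM at 0 dpa (log2 change -2.79, SE 0.32, limma adjusted p = 9.75e-05). The glycine cleavage gene gldc was at 3.88, 4.69 and 6.31 scaled TPM at 21 dpa, against 27.4, 30.5 and 28.1 scaled TPM at 0 dpa (log2 change -2.33, SE 0.26, limma adjusted p = 6.3e-05), and the glutamine synthetase gene glulb at 53.4, 52.1 and 57.0 scaled TPM at 21 dpa, against 271, 213 and 163 scaled TPM at 0 dpa (log2 change -1.94, SE 0.22, limma adjusted p = 8.78e-05). In these genes every 21 dpa library lay below 0 dpa. The polyamine list had 1 called gene of 12 (8.33%), a share near that of all genes, the spermine oxidase gene smox, at 13.0, 19.2 and 36.3 scaled TPM at 21 dpa, against 167, 135 and 151 scaled TPM at 0 dpa (log2 change -2.79, SE 0.28, limma adjusted p = 3.35e-05). Nucleotide synthesis genes had 1 higher and 5 lower of 22, among them impdh1a, which makes the precursor of guanine nucleotides, at 1.17, 1.26 and 1.58 scaled TPM at 21 dpa, against 18.6, 11.9 and 12.7 scaled TPM at 0 dpa (log2 change -2.70, SE 0.22, limma adjusted p = 5.25e-06).

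Prostaglandin genes had 4 of 17 higher and 1 lower. Besides ptgs2b, its paralog ptgs2a was at 62.4, 77.8 and 80.4 scaled TPM at 21 dpa, against 24.8, 18.6 and 29.9 scaled TPM at 0 dpa (log2 change 1.57, SE 0.20, limma adjusted p = 0.000174), and the receptor gene ptger2b averaged 16.8 ± 2.64 scaled TPM at 21 dpa and 4.96 ± 1.00 scaled TPM at 0 dpa (SD, n = 3 each), with a difference of 1.58 in log2 (SE 0.24; limma adjusted p = 0.000776). Both enzyme paralogs were thus higher at 21 dpa, and reads that they share could have been split between them. Forkhead, Sp and Klf transcription factor genes had 12 of 41 higher and 5 lower, with 5 higher and 1 lower when library set was a covariate. Besides sp8b, the related sp9 was at 1.22, 2.34 and 2.56 scaled TPM at 21 dpa, against 0.321, 0.283 and 0.235 scaled TPM at 0 dpa (log2 change 1.22, SE 0.20, limma adjusted p = 0.00111) and sp8a at 14.4, 17.1 and 10.5 scaled TPM at 21 dpa, against 4.96, 2.42 and 4.57 scaled TPM at 0 dpa (log2 change 1.60, SE 0.26, limma adjusted p = 0.00103). The gene foxc1b averaged 9.22 ± 2.47 scaled TPM at 21 dpa and 2.30 ± 0.278 scaled TPM at 0 dpa (SD, n = 3 each), with a difference of 1.60 in log2 (SE 0.20; limma adjusted p = 0.000164). The 21 dpa libraries were above the 0 dpa libraries in these 3 genes.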
